A study of Mus musculus with 6 samples.

Results

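The 10 genes described here encode enzymes that make serine, glycine, folate-bound carbon units, proline and asparagine, namely Phgdh, Psat1, Psph, Shmt1, Shmt2, Mthfd2, Mthfd1l, Aldh18a1, Pycr1 and Asns. They were chosen by symbol as amino acid enzymes regulated by the transcription factor ATF4, and each matched 1 row among the 22564 protein-coding genes of the deposited expression table. The table covers 6 liver libraries, all labelled as male mice of the strain C57BL/6 at 10 weeks of age. In 3 of them the label reads control, with any vehicle injection not given in the sources used here. A further 3 come from mice given tunicamycin, an inhibitor of N-linked glycosylation, at 0.2 mg/kg by intraperitoneal injection each day for 14 days. Nothing in the labels ties the libraries to separate mice, so p-values rest only on the spread between these libraries, which may be technical. In the main test (limma) that spread came from the trend over genes of like abundance, not from the gene itself.

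Serine is made from a glycolytic intermediate in successive steps by PHGDH, PSAT1 and PSPH. The serine hydroxymethyltransferases SHMT1, in the cytosol, and SHMT2, in mitochondria, split serine into glycine and a carbon unit carried on folate, which the mitochondrial enzymes MTHFD2 and MTHFD1L convert further towards formate. ALDH18A1 and PYCR1 act in the synthesis of proline from glutamate, and ASNS makes asparagine from aspartate and glutamine. When unfolded proteins accumulate in the endoplasmic reticulum, the kinase PERK phosphorylates the initiation factor eIF2-alpha, translation of ATF4 increases, and ATF4 binds composite C/EBP-ATF response elements in genes of this kind. The liver is a main organ of amino acid and folate metabolism.

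Promoter sequence from RefSeq (build GRCm38.p6) was found for all 10 genes, in 11 windows of 250 bases before an annotated start, since Psat1 had a pair of starts. The C/EBP-ATF response element was searched on both strands as TGATGNAA, with N for any base. It was present in 2 of the 11 windows, those of Asns and Pycr1, and in 3.45% of all 32851 promoter windows of the same length. The windows of Asns and Pycr1 are shown because they hold the letters of the element by which ATF4 is known to act, with the match in capitals. A match describes the letters only. The Asns window is printed up to the end of the match.
Asns, chr6:7693225-7693459, minus strand: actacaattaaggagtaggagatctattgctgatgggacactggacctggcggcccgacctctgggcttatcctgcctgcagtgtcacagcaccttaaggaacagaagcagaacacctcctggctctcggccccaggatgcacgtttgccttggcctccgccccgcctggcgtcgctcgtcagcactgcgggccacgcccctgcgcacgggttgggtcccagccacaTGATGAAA
Pycr1, chr11:120643749-120643998, minus strand: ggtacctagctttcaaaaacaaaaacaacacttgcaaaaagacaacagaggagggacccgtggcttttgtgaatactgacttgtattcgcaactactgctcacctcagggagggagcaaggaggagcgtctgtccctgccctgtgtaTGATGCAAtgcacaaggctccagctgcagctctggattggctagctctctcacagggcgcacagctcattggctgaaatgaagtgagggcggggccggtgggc
The match lay 23 to 16 bases before the RefSeq start of Asns and 103 to 96 bases before that of Pycr1. In GENCODE M21 the Asns gene begins further upstream, and the match (chr6:7693225-7693232) lies inside its first exon, whereas that of Pycr1 lies outside the annotated gene. The endoplasmic reticulum stress element, searched on both strands as CCAAT and CCACG with 9 bases between them, was in 0 of the 11 windows and in 0.113% of all windows.

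Expression was deposited as FPKM (fragments scaled to transcript length and library total) and as estimated counts, from which whole reads per gene were recovered, 541022 to 661145 per library. Reads divided by the library total are given as RPM, the usual scaled read number. Finding 0 reads for a gene allows a share as high as 0.000454% to 0.000555%, depending on the library (3 reads, counting error only). This takes reads as independent. Reads per gene were bunched (described below), so the share allowed could be higher. Detection was patchy across the whole table. Of its genes, 1124 were above 0 in every library and 13826 in none. Of 9 hepatocyte markers, 6 (Ttr, Apoa1, Serpina1a, Ahsg, Cps1 and Ass1) were at 0 in every library, against the label of liver, and with Alb, Apob and Hnf4a their summed FPKM was 220 to 492 in controls and 119 to 149 after tunicamycin. These sums rest on Alb (mean FPKM 248 ± 46.4 for the controls and 119 ± 19.7 with tunicamycin, SD, n = 3 each) and on Hnf4a in control 1 (262 FPKM). Alb was lower in all tunicamycin libraries than in any control, whereas Apob was higher (5.05 to 13.4 FPKM against 0.042 to 1.84). Groups were apart in this way in both FPKM and RPM, in either direction, for 4.44% of 7696 genes averaging at least 1 FPKM. Endothelial (6 of 6) and lymphocyte markers (5 of 5) were at 0 throughout, as were 2 of 5 Kupffer cell markers (sums of 0 to 1.04 FPKM in the controls and 0 to 47.9 with tunicamycin) and 5 of 6 stellate cell markers (0 to 49.2 and 0.341 to 47.9). Cholangiocyte and other epithelial markers (1 of 8, Spp1, at 0 throughout) summed to 454 to 620 FPKM in the controls and 389 to 467 after tunicamycin. Krt18 had the highest mean of them (213 FPKM). Mean FPKM of Krt8 was lower after tunicamycin (54.9 against 111) and that of Krt19 higher (105 against 41.1). Dividing cell markers summed to 215 to 474 FPKM in the controls and 130 to 709 after tunicamycin. The part of these markers in the values below was not tested, and in bulk samples fewer cells of a type and less RNA per cell cannot be told apart.

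Phgdh, Psat1, Shmt2, Aldh18a1 and Asns were above 0 FPKM in each of the 6 libraries, which held for 14.5% of the 7696 genes tested, those whose FPKM averaged at least 1 over the libraries. Shmt1 was at 0 in 1 library, Mthfd2 in 2, Psph and Mthfd1l in 3 and Pycr1 in 5. Together the 10 genes took 783 to 1158 reads in a library. Pycr1 did not reach the mean of 1 FPKM, so 9 of the 10 were tested.

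No enzyme passed the test between tunicamycin and control. With limma on log2(FPKM + 1), adjusted over all genes tested, 0 of 9 were called, against 0.065% of all genes (5 of 7696; 0.052% higher and 0.013% lower), and none of the 9 had an unadjusted p under 0.05, against 3.09% of all genes. With edgeR's quasi-likelihood test on reads, 0 of 8 were called (0.0243% of genes; Mthfd1l did not pass edgeR's filter, with more than 2 reads in only 2 libraries), and with DESeq2 on reads 0 of 8 genes that received an adjusted p (0.538% of genes, 0.256% higher and 0.282% lower). By DESeq2, Mthfd1l had an unadjusted p of 0.00839, where 8.11% of genes lay under 0.05, and no enzyme did by edgeR (1.77% of genes). Among the 9, 5 log2 fold changes were positive and 4 negative (median 0.43), beside 4013 positive of 7696 genes (52.1%) and a median of 0.10. The values that follow are therefore given as measured levels, with the groups described by whether they overlap.

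The first serine synthesis enzyme, Phgdh (chr3:98313170-98339990, minus strand, mm10), had lower FPKM in every tunicamycin library than in any control. It lay at 258, 177 and 164 FPKM across controls 1, 2 and 3 and at 53.2, 78.6 and 135 in tunicamycin libraries 1, 2 and 3 (199.5 ± 51.1 and 88.8 ± 41.7, SD, n = 3 each; limma log2 fold change -1.23 with SE 0.90 and adjusted p = 0.852). It was the only one of the 9 enzymes whose FPKM did not overlap between groups, and 2.72% of all genes tested were separated in this direction (5.74% in either). Whole reads did not separate the groups. There were 121, 332 and 547 in the control libraries and 179, 170 and 178 with tunicamycin. Control 1 thus combined the lowest read number of the 6 with the highest FPKM. The tunicamycin libraries were close to each other, and controls 2 and 3 stood above them. The tunicamycin-to-control ratio of means was 0.445 by FPKM and 0.553 by RPM, and 0.330 to 0.534 and 0.427 to 0.75 with 1 library left out.

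Psat1 (chr19:15904678-15947337, minus strand), the aminotransferase of the next step, showed the opposite order. It held 152, 114 and 148 reads in the control libraries and 190, 338 and 252 with tunicamycin. All 3 tunicamycin libraries lay above all controls, as for 3.03% of all genes in RPM (2.55% lay below, 5.57% in either direction). The ratio of means in RPM was 1.91, and 1.57 to 2.21 with 1 library left out. Psat1 missed the threshold by edgeR on those reads (log2 fold change 1.02, adjusted p = 1.00). By FPKM the groups overlapped. Psat1 lay at 40.5, 44.2 and 125 FPKM in the controls and at 76.6, 237 and 199 after tunicamycin (69.8 ± 47.6 and 171 ± 83.9, SD, n = 3 each; limma log2 fold change 1.32 with SE 1.01 and adjusted p = 0.852). Control 3 stood above tunicamycin 1 in FPKM, and without control 3 the FPKM ratio was 4.04 instead of 2.45.

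Psph (chr5:129765558-129787449, minus strand), the phosphatase that releases serine, was detected in 3 libraries. It was listed at 0, 47.9 and 0 FPKM in the controls and at 20.6, 0 and 23.8 after tunicamycin, from 0, 41 and 0 and then 53, 0 and 21 reads. Each group held libraries at 0 and libraries above 0, so the groups overlapped. The ratio of means was 0.926 by FPKM and 1.72 by RPM, on different sides of 1. Without tunicamycin 1 both lay below 1 (0.745 each), without tunicamycin 2 both lay above it (1.39 and 2.58), and without control 2 no control read was left. The limma log2 fold change of 1.15 (SE 2.05, adjusted p = 0.906) was positive although the ratio of mean FPKM was below 1. The gene body of Psph shares 452 bases with Cct6a, and that of Psat1 556 with the pseudogene Gm3329, both on the opposite strand (GENCODE M21). The library kit keeps strand, but the strand setting of the counting was not stated, so reads in such overlaps cannot be told apart.

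**Figure D1:**
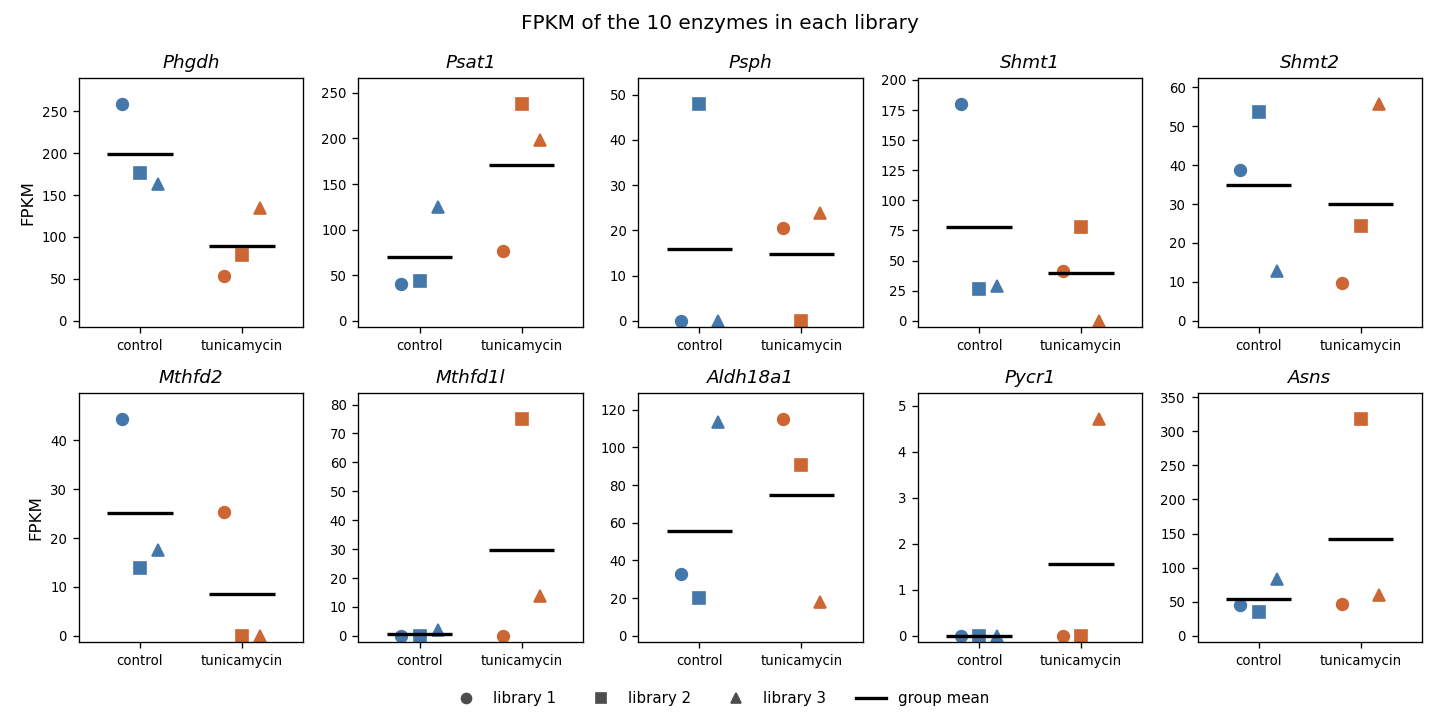
FPKM (vertical axes, each from 0 to its own maximum) of the 10 genes in control and tunicamycin libraries; circles, squares and triangles are libraries 1, 2 and 3 and bars are group means. Phgdh was the only gene whose groups did not overlap, with 53.2 to 135 FPKM after tunicamycin and 164 to 258 in controls.

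The serine hydroxymethyltransferases had no separation between groups. Shmt1 (chr11:60788104-60811718, minus strand), the cytosolic enzyme, lay at 179.7, 26.2 and 28.6 FPKM in the controls and at 41.2, 77.5 and 0 after tunicamycin (limma log2 fold change -1.82 with SE 1.54 and adjusted p = 0.852). From control 1 to control 3 it held 122, 18 and 21 reads, and with tunicamycin 32, 57 and 0. Control 1 was the highest library in both measures. Without it the ratio of means turned from 0.506 to 1.45 by FPKM and from 0.538 to 1.64 by RPM.

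Shmt2 (chr10:127517123-127522444, minus strand), the mitochondrial enzyme, gave the same picture in both measures. It lay at 38.6, 53.5 and 12.8 FPKM in the controls and at 9.84, 24.4 and 55.6 after tunicamycin, from 146, 211 and 53 and then 41, 94 and 224 reads. The libraries of each group spanned nearly the same range. The ratio of means was 0.855 by FPKM and 0.857 by RPM (limma log2 fold change -0.31 with SE 1.54 and adjusted p = 0.993), and it passed 1 when control 2 (1.16 by FPKM) or tunicamycin 1 (1.14) was left out. The gene bodies of Shmt1 and Shmt2 share 184 bases with Smcr8 and 32 bases with Ndufa4l2, both on the opposite strand. The gene bodies of other members overlap genes on their own strand, where strand could not separate reads. All these overlaps are of whole gene spans, introns included. Whether exons overlap, and so whether reads could be shared, was not tested. Mthfd2 shares 2799 bases with Gm43890 and Aldh18a1 522 with the pseudogene Gm15801. Mthfd1l shares 444 with the pseudogene Gm16074 and 157 with Gm25515.

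Of the enzymes that carry the folate-bound unit further, Mthfd2 held most of its reads in controls and Mthfd1l in tunicamycin libraries. Mthfd2 (chr6:83305691-83325908, minus strand), which oxidises methylene-folate in mitochondria, lay at 44.3, 13.9 and 17.5 FPKM in the controls and at 25.4, 0 and 0 after tunicamycin, from 150, 49 and 65 and then 69, 0 and 0 reads. Tunicamycin 1 was within the range of the controls, and the other 2 were at 0. The ratio of means was 0.336 by FPKM and 0.245 by RPM, and 0 to 0.540 and 0 to 0.411 with 1 library left out, the lowest without tunicamycin 1 and the highest without control 1 (limma log2 fold change -2.96 with SE 1.97 and adjusted p = 0.852). Mthfd1l (chr10:3973118-4167081, plus strand), the mitochondrial formyl-folate synthetase that releases formate, was listed at 0, 0 and 2.05 FPKM in the controls and at 0, 74.9 and 13.8 after tunicamycin (limma log2 fold change 2.84 with SE 2.04 and adjusted p = 0.852). Its reads were 0, 0 and 2 in controls and 0, 166 and 88 after tunicamycin. Tunicamycin 1 was at 0 like 2 of the controls, so the groups overlapped. The summed reads, 254 against 2, gave a ratio of 128 relative to library totals. The exact 95% interval, 35.2 to 1066, covers only the counting error of independent reads. It covers neither the spread between libraries nor the bunching of reads per gene described below.

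In the proline pathway, FPKM and reads of Aldh18a1 pointed to different sides. Aldh18a1 (chr19:40550257-40588463, minus strand), which makes the shared precursor of proline and ornithine from glutamate, lay at 33.1, 20.1 and 113 FPKM in the controls and at 115, 90.6 and 18 after tunicamycin (limma log2 fold change 0.43 with SE 1.29 and adjusted p = 0.966). The reads behind them were 136, 86 and 194 for the controls and 126, 61 and 111 for tunicamycin. The groups overlapped in both measures. The ratio of means was 1.34 by FPKM and 0.725 by RPM, and the edgeR log2 fold change on reads was -0.33 (adjusted p = 1.00). Pycr1 (chr11:120635712-120643769, minus strand), which completes proline synthesis in mitochondria, held reads in tunicamycin 3 only (15 reads, 4.70 FPKM) and was at 0 in the other 5 libraries. Against a floor of 3 reads over the controls, its summed reads would be at least 5.05-fold higher if reads counted independently. That bound rests on 1 library and covers counting error only. Reads per gene were bunched in these libraries (described below), so it is not a firm lower limit.

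Asns (chr6:7675169-7693254, minus strand) had a higher mean FPKM with tunicamycin and a nearly equal number of reads (329 against 320), and its groups overlapped in both. It lay at 44.8, 34.8 and 83.1 FPKM in the controls and at 47.3, 317 and 60.5 after tunicamycin (limma log2 fold change 0.93 with SE 1.14 and adjusted p = 0.852). Reads per library were 145, 47 and 128 for the controls and 93, 152 and 84 for tunicamycin. Tunicamycin 2 was the highest library in both measures, at 317 FPKM beside 83.1 in the next library, but at 152 reads beside 145. The ratio of means was 2.61 by FPKM, 0.994 without tunicamycin 2, and 1.05 by RPM. The window before its RefSeq start holds the letters TGATGNAA shown above, as do 3.45% of all windows. That of Pycr1, which was nearly undetected, holds them too. Whether ATF4 acted on either gene in these libraries was not tested.

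**Figure D2:**
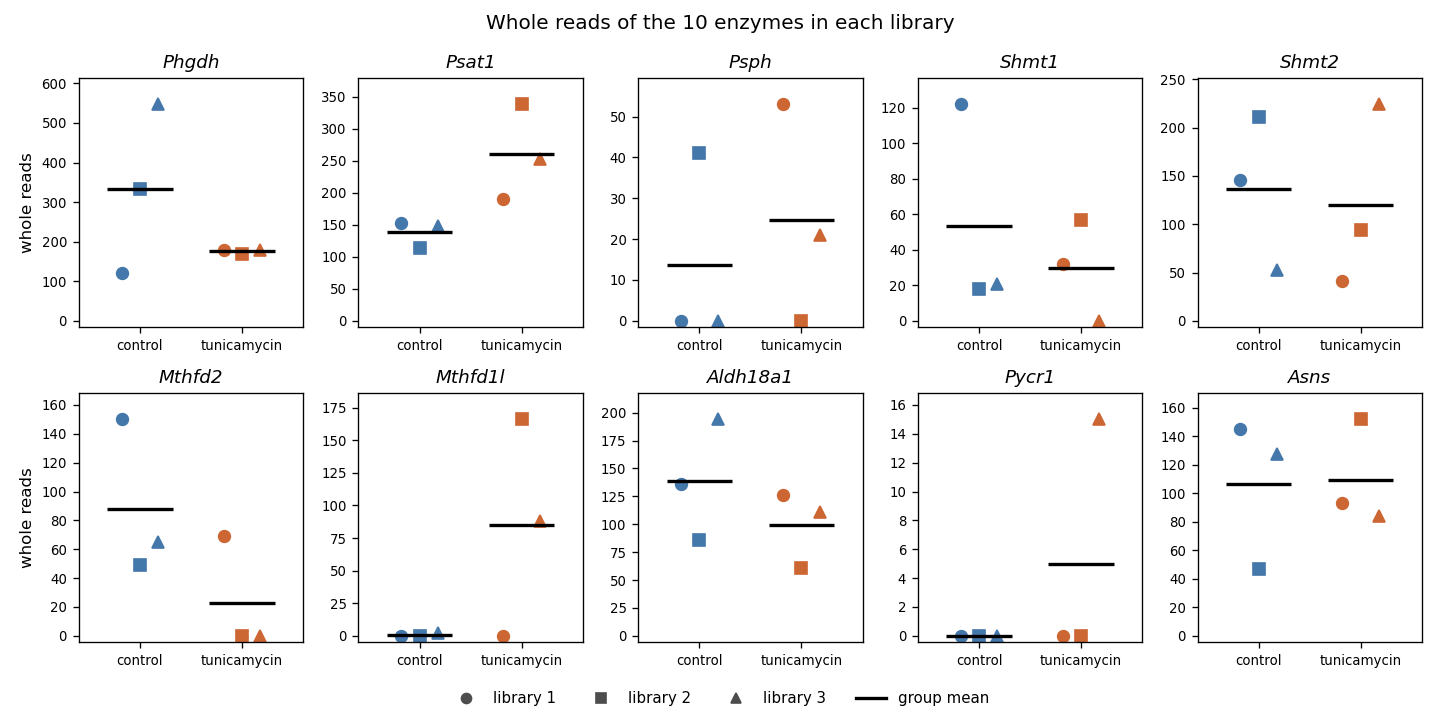
Whole reads (vertical axes, each from 0 to its own maximum) of the same genes and libraries, with the same symbols. Psat1 was the only gene whose groups did not overlap, with 114 to 152 reads in controls and 190 to 338 after tunicamycin, and the Phgdh groups overlapped through control 1 (121 reads).

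Both measures were then set side by side. The ratios of means were taken to disagree where they lay on different sides of 1 or were over 1.5-fold apart. Of the 9 enzymes with values above 0 in both groups, 4 disagreed (Psph, Mthfd1l, Aldh18a1 and Asns), beside 32.7% of 5572 genes that could be compared. Psph and Aldh18a1 lay on different sides of 1, as did 12.3% of all genes. For Asns the FPKM ratio was 2.50 times that of RPM, for Aldh18a1 it was 1.85 times, for Psph 0.539 times and for Mthfd1l 0.293 times. Phgdh, Psat1, Shmt1, Shmt2 and Mthfd2 stayed within 1.5-fold, Shmt2 most closely (0.999). The share of enzymes that disagreed was near that of all genes. No enzyme had groups that did not overlap in both FPKM and RPM, which held for 4.44% of genes.

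**Figure D3:**
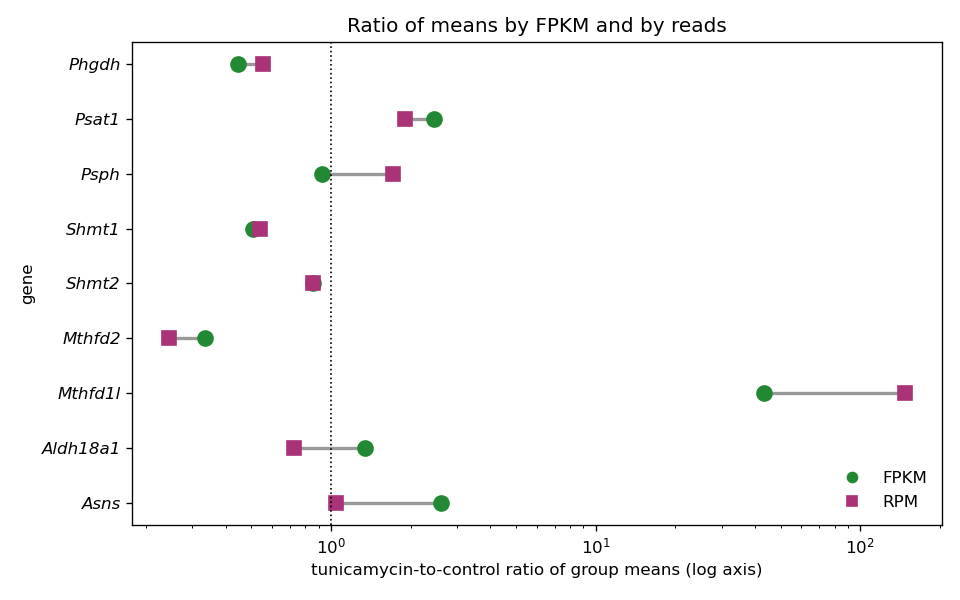
Tunicamycin-to-control ratio of group means (horizontal log axis) for the 9 enzymes detected in both groups, by FPKM (circles) and by RPM (squares), with a dotted line at 1. The markers lie on different sides of the line for Psph (0.926 and 1.72) and Aldh18a1 (1.34 and 0.725).

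The transcript length that links counts to FPKM was not constant. FPKM divides a gene's fragments by the effective length of the transcripts to which they were assigned, so the deposited count divided by FPKM gives that length. The scale was set in each library on 100 to 193 genes with a single annotated transcript over 2000 nt. For genes with a single transcript of 400 to 600 nt (median 478 to 490 nt) the implied length was shorter than the annotated one, at a median of 331 to 360 nt. Shmt2 gave 2237 to 2256 nt in all 6 libraries, beside coding transcripts of 2238 and 2289 nt in GENCODE M21. For Phgdh the implied length was 278, 1072 and 1816 nt in controls and 1818, 1257 and 738 nt after tunicamycin, beside annotated coding transcripts of 446 and 1893 nt. Control 1 and tunicamycin 1, the extremes of its FPKM, were also the extremes of this length. Such a match is partly built in, because the length is the count divided by FPKM. At similar counts a high FPKM gives a short length by arithmetic. What set the length in each library was not tested.

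Asns and Aldh18a1 varied most within the genes detected in all 6 libraries. Asns gave 1916, 770 and 837 nt in controls and 1061, 278 and 774 nt after tunicamycin, beside coding transcripts of 431 to 2016 nt. The shortest value belonged to tunicamycin 2, its library of highest FPKM. Aldh18a1 gave 2437, 2447 and 932 nt and then 594, 391 and 3433 nt. Its libraries with the shorter lengths (control 3, tunicamycin 1 and tunicamycin 2) were those with the higher FPKM. For both genes this match is partly arithmetic, as for Phgdh. Psat1 ranged from 645 nt in control 3 to 2222 nt in control 1. Shmt1 was short throughout, at 392 to 427 nt in its 5 libraries, below its shortest annotated coding transcript of 1318 nt. Its annotated transcripts of other types include 5 of 415 to 582 nt. In all, the ratio of RPM to FPKM departed over 1.5-fold from the gene's own median in at least 1 library for 6 of 9 enzymes, beside 40.2% of 6237 genes, and Shmt1, Shmt2 and Mthfd2 were the ones without such a library.

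**Figure D4:**
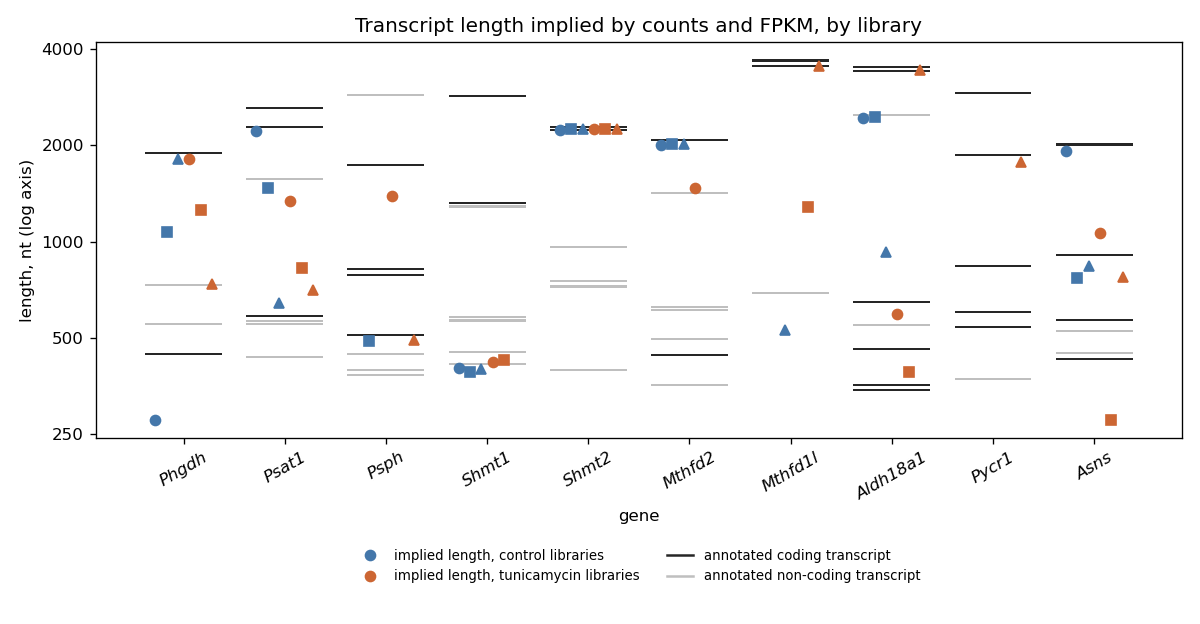
Length implied by the deposited count and FPKM (vertical log axis, nt) for each gene and library (symbols as before, blue for control and orange for tunicamycin), with annotated GENCODE M21 transcripts as lines, dark for coding and light for other types. Shmt2 stayed at 2237 to 2256 nt, whereas Phgdh ranged from 278 to 1818 nt and Asns from 278 to 1916 nt.

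The order of the enzymes by level depended on this length. By mean FPKM over the 6 libraries, Phgdh (144) and Psat1 (120.3) stood highest, followed by Asns (98.0), Aldh18a1 (65.0), Shmt1 (58.9) and Shmt2 (32.5). When each gene's counts were divided by the length of its longest coding transcript instead, the mean fixed-length FPKM was 75.1 for Phgdh, 43.0 for Psat1, 31.9 for Shmt2, 30.4 for Asns, 18.9 for Aldh18a1 and 15.1 for Mthfd2. Shmt1 (8.42), Mthfd1l (6.63), Psph (6.13) and Pycr1 (0.479) followed. Neighbours in this order had overlapping ranges over the libraries. Shmt1 thus stood above Shmt2 by mean FPKM and below it at fixed length, with 250 reads in all against 769. At fixed length Phgdh lay at 37.8, 100.1 and 157 in controls and 51.1, 52.2 and 52.5 after tunicamycin, and Asns at 42.6, 13.3 and 34.5 and then 24.9, 43.8 and 23.3.

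Reads of the enzymes in control 1 were nearly equal. All 7 enzymes detected there held 121 to 152 reads, within 1.5-fold of the most frequent read number per gene in that library (139), around which 45.5% of its detected genes lay. In the other libraries the most frequent read number was 39.7 to 71.0, and 2 or 3 of the 7 or 8 detected enzymes lay within 1.5-fold of it. Over all libraries 20 of 46 detected values did so (43.5%), beside 41.6% for all genes. Phgdh stood furthest above, at 547 reads in control 3 (10.1 times the most frequent number) and 332 in control 2 (7.08 times). Psat1 reached 4.79, 4.89 and 3.55 times in the tunicamycin libraries.

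**Figure D5:**
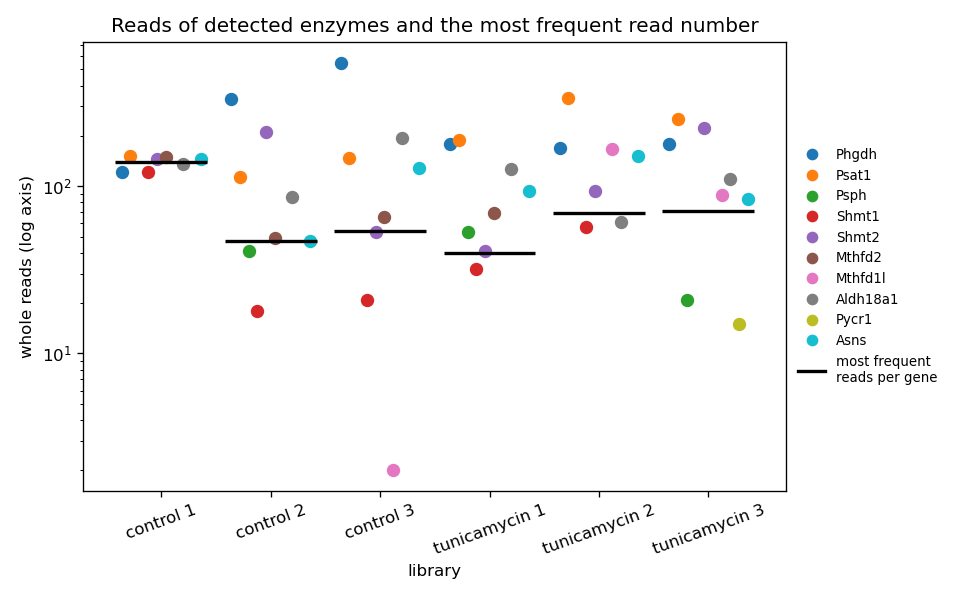
Whole reads (vertical log axis) of each detected enzyme by library, 1 colour per gene, with the most frequent read number per gene of the library as a black bar. In control 1 the 7 detected enzymes lay between 121 and 152 reads around a bar at 139, and in the other libraries they were spread from 2 to 547.

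Among other genes of the same pathways, none passed limma's threshold. Of 22 further genes of folate metabolism, 6 were at 0 throughout (27.3%, beside 61.3% of all genes) and 13 were tested (7 positive and 6 negative log2 fold changes, median 0.13). Its most abundant members were each at 0 in all tunicamycin libraries. Slc46a1, the proton-coupled folate transporter, was detected only in control 1 (124 FPKM), Fpgs, which adds glutamates to folate, in controls 1 and 3 (36.8 and 17.1 FPKM), and Dld, a subunit of the glycine cleavage system, in controls 2 and 3 (39.0 and 11.2 FPKM). Mthfd1, the cytosolic counterpart of the mitochondrial folate enzymes, was named after its values were seen. It lay at 0.89, 18.5 and 16.9 FPKM in the controls and at 0.16, 0.18 and 0 after tunicamycin, without overlap in FPKM or reads (limma adjusted p = 0.852), the 1 gene of the 13 for which this held in both measures (4.44% of all genes). Its reads were 5, 108 and 104 and then 1, 1 and 0. The separation therefore rests on 5 reads in control 1.

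Genes that use serine and glycine, or handle glutamate and asparagine, had no call either. In the first list 6 of 15 were at 0 throughout and 8 were tested (5 positive, 3 negative, median 0.58). Ahcy, which hydrolyses adenosylhomocysteine, lay at 51.2, 35.6 and 46.1 FPKM in the controls and at 19.4, 224 and 29.7 after tunicamycin. Its reads were 215, 156 and 213 and then 90, 192 and 133. Mean FPKM was thus higher after tunicamycin (91.2 against 44.3), whereas the RPM ratio was 0.725. Sptlc2, a subunit of serine palmitoyltransferase, lay at 0, 53.6 and 0 FPKM and then at 27.2, 155 and 71.9, and Mat2a, a methionine adenosyltransferase, at 0.43, 35.4 and 0.19 and then at 22.4, 17.2 and 15.7. By FPKM, tunicamycin 2 was the highest library for Ahcy and Sptlc2, as it was for Asns and Psat1. Sptlc2 reads did not overlap between groups (0, 58 and 0 against 85, 148 and 72), whereas its FPKM did. In RPM, 3.03% of all genes tested were higher in this way and 5.57% were apart in either direction. In the glutamate, proline and asparagine list 5 of 15 were at 0 throughout and 10 were tested (3 positive, 7 negative, median -0.41). Glud1, glutamate dehydrogenase, lay at 276, 100.7 and 104 FPKM in the controls and at 10.3, 23.0 and 73.5 after tunicamycin, whereas its reads overlapped (123, 243 and 222 in the controls, beside 62, 129 and 296). As for Phgdh, the groups were apart in FPKM (lower in this way for 2.72% of all genes tested) and not in reads. Glul, glutamine synthetase, lay at 113 to 172 FPKM in the controls and 145 to 211 after tunicamycin, with reads of 800, 498 and 655 and then 520, 480 and 397 (RPM ratio 0.716). The aspartate aminotransferase Got1 lay at 32.5 to 70.6 FPKM and then at 9.22 to 261.

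Carriers of amino acids included 3 genes with groups that did not overlap in either measure, though none passed the test. Of 9 genes, 8 were tested (4 positive, 4 negative, median 0.34), and the 3 had lower values in every tunicamycin library than in any control in both FPKM and RPM, which held in either direction for 4.44% of all genes. Slc1a5, a neutral amino acid exchanger, lay at 347, 119.7 and 18.8 FPKM in the controls and at 13.8, 7.96 and 3.12 after tunicamycin, from 144, 174 and 94 and then 69, 37 and 4 reads (limma log2 fold change -3.53 with SE 1.55 and adjusted p = 0.852). Slc3a2, the heavy chain that brings several amino acid exchangers to the membrane, lay at 59.5, 43.1 and 38.3 FPKM and then at 34.8, 10.6 and 24.9. Slc7a1, a carrier of arginine and lysine named after its values were seen, lay at 37.3, 52.5 and 34.9 FPKM and then at 13.6, 22.4 and 26.6 (limma adjusted p = 0.884). Slc38a2, the third most abundant of the list, overlapped (16.9 to 55.3 FPKM in the controls, 21.9 to 47.7 after tunicamycin).

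Of genes of the integrated stress response, 2 of 16 (Atf4 and Atf5) were above 0 in every library, beside 1124 of all 22564 genes. In the list of the integrated stress response 14 of 16 genes were tested (9 positive, 5 negative, median 1.29), and none passed. Atf4 mRNA lay at 98.9, 70.2 and 88.1 FPKM in the controls and at 98.5, 19.2 and 43.3 after tunicamycin, so that its lowest library was tunicamycin 2. In that library Psat1, Asns and Mthfd1l were highest, Asns by few reads (152 beside 145 in control 1). Psph, Mthfd2 and Pycr1 were at 0 there, and Aldh18a1 had its fewest reads (61). ATF4 is controlled largely at translation, which these libraries do not measure. Ddit3 and Trib3, downstream of ATF4, were the next most abundant and were each at 0 in 3 libraries. Eif2ak1, a kinase of eIF2-alpha named after its values were seen, lay at 0.406, 0 and 0 FPKM in the controls and at 11.4, 9.56 and 9.67 with tunicamycin, without overlap in either measure (limma adjusted p = 0.852). It was the 1 gene of the 14 for which this held, beside 4.44% of all genes.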

How the data were processed

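Per the labels' protocols, total RNA was depleted of ribosomal RNA and made into stranded libraries. Per the submitters' processing notes, CASAVA 1.8, cutadapt 1.9.3, HISAT2 2.0.4 (build mm10) and Cuffdiff were used, with Cuffdiff's version not given in the sources used here. FPKM and estimated counts per gene were deposited by the authors, who do not state how the counts were scaled. Between 97.2% and 98.0% of a library's deposited counts above 0 were whole multiples (within 0.01) of 1 step, 0.995 to 1.10 by library. Counts were divided by it and rounded to whole reads. FPKM stayed the main measure, as planned for scaled counts.

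The test was limma 3.58.1 (R 4.3.3, variance trend, no covariate) on log2(FPKM + 1), keeping genes that averaged 1 FPKM or more, with Benjamini-Hochberg adjustment over all 7696 genes and a threshold of 0.05, 2-sided. Its variance prior had infinite degrees of freedom, so SE and p came from the trend over genes of like abundance. edgeR 4.0.16 (quasi-likelihood, TMM, filterByExpr) and DESeq2 1.42.0 (poscounts) were run on whole reads. The test scripts were checked on simulated counts without the bunching of reads per gene seen here, which says nothing of their power in these libraries. Alternatives covered pseudocount, filters, trend, scaling, a replicate block and each library left out. All 10 members were named, and of each related list the 3 tested genes with the highest mean FPKM. Members and lists were chosen with earlier results of these data known. Positions and transcripts came from GENCODE M21 (same build), where 21839 identifiers of the table were found. The FPKM + 1 scale understates changes of low genes. 1 hepatocyte marker is not reported here.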

Additional observations from a re-analysis of the deposited data

How the results depend on the processing

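No enzyme was called under any alternative run, including pseudocount 0.1, no filter, no variance trend, median-of-ratios scaling, the replicate block, edgeR, DESeq2 and each library left out with limma or edgeR (edgeR without each library was added after seeing the data). Over all genes, limma called 4 higher and 1 lower. The calls were 0 and 0 without a filter, without the variance trend, with the replicate block and when any single library was left out (0 to 0). They were 4 and 0 with median-of-ratios scaling, 1 and 0 with edgeR, 3 and 0 with edgeR without a filter on low counts, and 10 and 11 with DESeq2; the cause was not tested. edgeR called 1 gene in all, 3 without its filter and 0 to 2 with 1 library left out. The enzymes whose FPKM and reads disagreed numbered 4, and 3 to 5 with 1 library left out.

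Phgdh, Psat1, Mthfd2 and Mthfd1l kept the sign of the log2 fold change under all alternatives for which it was recorded (16 for Mthfd1l, 19 for the others). It was not recorded for edgeR without its filter on low counts. Aldh18a1 turned from 0.43 to -0.33 with edgeR and -0.47 with DESeq2; without each library limma gave -0.089 (control 2) and -0.058 (tunicamycin 1) within a range up to 1.25, and edgeR gave -0.40 and -0.49 without controls 1 and 2 and -0.65, -0.046 and -0.32 without tunicamycin 1, 2 and 3. Shmt1 turned to 0.13 without tunicamycin 3 (lowest -3.02), and with edgeR to 0.69 without control 1 and 0.025 without tunicamycin 3. Shmt2 turned to 0.095 without control 2 and 0.29 without tunicamycin 1 (lowest -0.90), and with edgeR to 0.50 and 0.18. Psph turned to -0.62 with edgeR without tunicamycin 1. Asns turned to -0.064 without control 2 and -0.044 without tunicamycin 2, both with edgeR. The cause was not tested. The replicate numbers did not pair the libraries: deviations of same-numbered libraries correlated at -0.0093, -0.014 and 0.0023 over 7696 genes. No library correlated best with its own number. Each number held 1 control and 1 tunicamycin library, so the replicate block could not change a log2 fold change, only its SE and p. Its log2 fold changes are therefore those of the main fit and no check of them (Phgdh -1.23, Psat1 1.32, Psph 1.15, Shmt1 -1.82, Shmt2 -0.31, Mthfd2 -2.96, Mthfd1l 2.84, Aldh18a1 0.43, Asns 0.93). With the block, limma's adjusted p was 0.886 to 0.992. At 0 reads, counting error alone allows a share as high as 0.000454% to 0.000555% if reads are independent, which the bunching of reads per gene puts in doubt. Whether depth set the values at 0 was not tested.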
